A study of Mus musculus with 9 samples.

Results

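The 49 genes described here act in mitosis and cytokinesis. They encode proteins of the centromere and kinetochore, the spindle checkpoint, the chromosomal passenger complex, condensin, the mitotic kinases, the spindle, sister chromatid cohesion and the machinery of cell separation. They were listed by name, kinesins left aside, when earlier results of these data were already known, so the shares of all genes given beside their counts are a background and no test of the list. They were read on every probe annotated to them, which gave 103 of the 45281 probes on the array. All 49 were found among the 19057 genes named on it. Expression was measured in HR+ cells, the luminal cells of the mammary gland that sense oestrogen and progesterone, from female FVB mice (FVB/N in the methods). The labels give an age of 9 to 11 weeks for all, while the methods give 11 weeks for the virgin mice and 9 to 11 weeks at mating for the pregnant ones. Virgin mice in metestrus were set beside pregnant mice, taken on day 3 or on day 7, with 3 animals per stage and a separate array for each. Every animal, virgin mice included, received EdU at 2 mg/g as the labels state it, 24 hours before the glands were taken. For the virgin mice the methods give metestrus as the stage at this injection. From each mouse 1000 cells were sorted on CD24, CD49f, Sca1 and CD49b after exclusion of CD45+ cells, and RNA equal to 167 cells was amplified in repeated rounds.

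Mitosis begins when kinases led by Cdk1, with its activating phosphatases, start condensation of the chromosomes and assembly of the spindle. The kinetochore, built on the centromeric histone Cenpa, holds each chromosome to microtubules, and the checkpoint stops Cdc20 from activating the anaphase-promoting complex until all chromosomes are attached. Most of these transcripts accumulate in G2 and M phase and are repressed in resting cells, so in most tissues their RNA is found mainly where cells divide. In the mammary gland the epithelium proliferates in the first days of pregnancy, when ducts branch and alveoli start to form. In a sorted population, a larger share of dividing cells and more RNA per dividing cell give the same array signal and cannot be told apart here.

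Values are log2 signals after quantile normalisation of the 9 arrays. A signal of 100, which is 6.64 on the log2 scale, was taken as background. A probe was tested if the mean of at least 1 stage reached it, and a gene counted as called when any of its probes moved by 2-fold or more with an adjusted p no higher than 0.10, by limma with Benjamini-Hochberg adjustment over 18707 probes. Values of a gene are those of its brightest probe, n = 3 animals per stage. Where all 3 arrays of a stage lay under 100, the fold is a lower bound against that level. Where only some of them did, the fold is that of the measured means, with part of the lower level at background. Bub1b, Cdca3, Kntc1 and Aurkb in virgin mice are among these. The mean raw signal ran from 284 to 316 on virgin arrays, 353 to 520 on day 3 arrays and 348 to 440 on day 7 arrays. Luminal keratins were bright on all 9 arrays, with Krt8 between 13.87 and 14.8 and Krt18 between 12.75 and 13.9. Of the markers of the HR+ state, Foxa1 ran from 8.96 to 10.38 and Pgr from 7.9 to 9.46, while Esr1 lay close to background, at 6.54 to 7.13. These markers moved with the stage: Pgr was lower at day 3 (-1.18) and at day 7 (-1.13) than in virgin mice and Foxa1 at day 7 (-1.26), whereas Tnfsf11 was higher at both days (2.25 and 4.04) and Cited1 at day 3 (1.36). Prlr, Ly6a and Areg were not analysed here.

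At day 3 of pregnancy, 24 of the 49 genes were higher than in virgin mice and 1, Spc24, was lower. These were 63.2% and 2.63% of the 38 genes with a tested probe. Among all 11261 genes with a tested probe, 2.97% were called higher and 3.15% lower in the same comparison. The rise covered every group of proteins described below, and was largest for Pbk, Cdca8, Cdca3, Kntc1 and Nusap1. Pbk was at least 39.3-fold higher, and the other 4 changed by 3.66 to 4.74 on the log2 scale. Of the 49 genes 38 had a tested probe, and 13 of these had every virgin array under 100 on the brightest probe, so that they entered through the pregnant animals. Of the 24 genes higher at day 3, 8 were of this kind. The filter takes stage means, so Cenph, Cenpm, Nuf2 and Aurkb, with virgin means of 6.51 to 6.61, entered in the same way. The brightest probe of Cdca3 did so too, at a virgin mean of 6.55. For that reason the whole set was also read without the filter, and then the median change of the 49 genes at day 3 was 0.85, beside -0.01 over all named genes. The change was positive in 42 of the 49, beside 46.2% of all named genes.

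By day 7 most of this signal was lower than at day 3. Of the 49 genes 7 were higher at day 7 than in virgin mice, namely Cenpa, Bub1b, Cdca8, Pbk, Cdca3, Ncaph and Prc1. They were 18.4% of the 38 tested, and the percentage called higher among all genes tested was 3.71%. None was called lower by limma, beside 3.86% of all genes, though 2 had a probe with an unadjusted p under 0.05 in that direction and Cyber-T called 1, Anln. Between the days, 23 of the 49, or 60.5% of the 38 tested, were lower at day 7 than at day 3, beside 2.29% of all genes tested. None was higher, at an unadjusted p under 0.05 or by Cyber-T either, beside 2.75% of all genes. Without the filter the median change of the 49 genes was 0.2 for day 7 against virgin and -0.89 for day 7 against day 3, where all named genes had medians of -0.01 and 0.0. The comparisons share arrays, so the fall after day 3 and the rise before it rest on the same 3 day 3 animals.

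**Figure D1:**
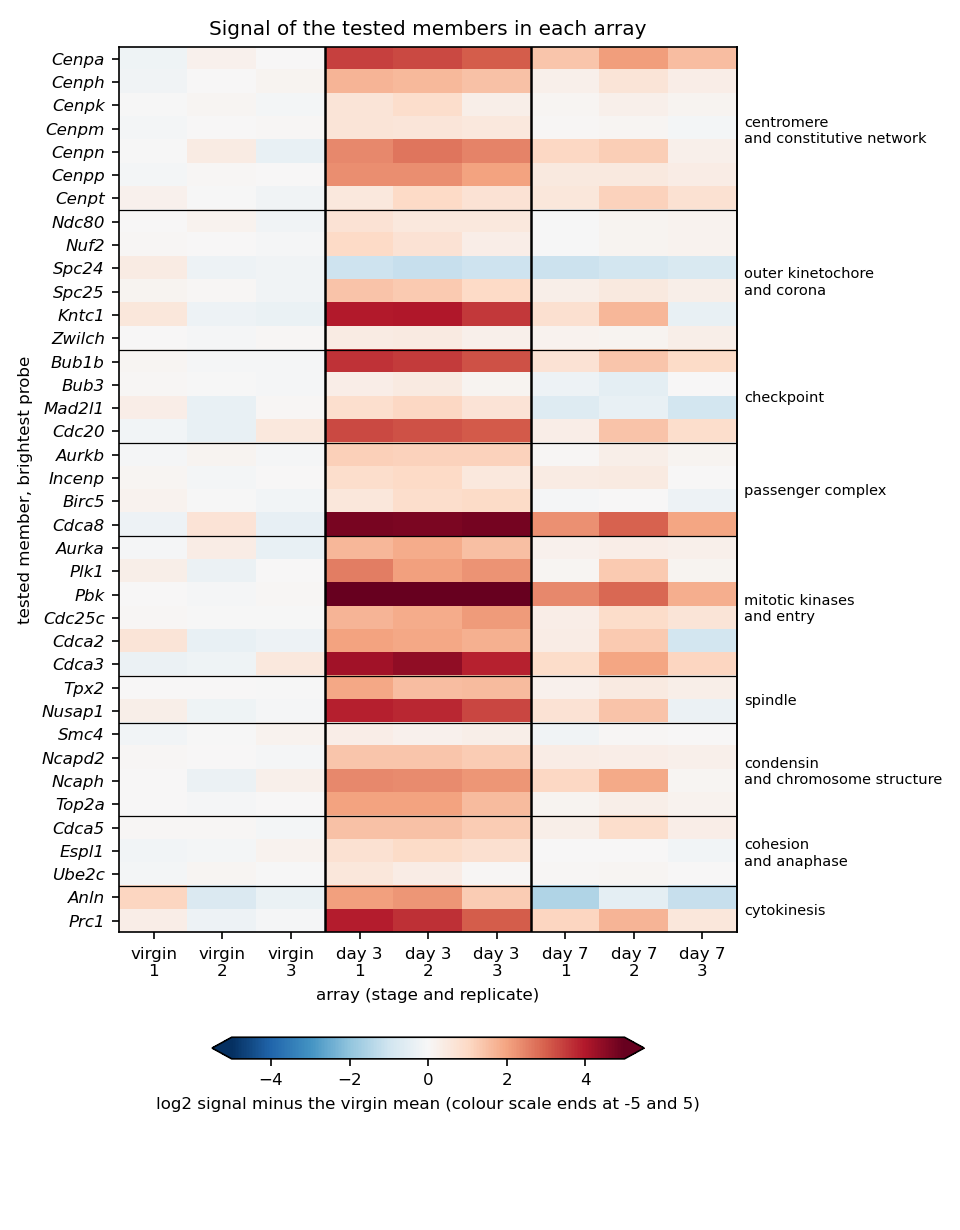
Log2 signal of the 38 members with a tested probe (rows, brightest probe, grouped by role) in each of the 9 arrays (columns: virgin, day 3 and day 7, replicates 1 to 3), given as the difference from the virgin mean. The day 3 mean lies above the virgin mean for every member but Spc24, by only 0.29 for Smc4, where the colour is faint. Pbk is the strongest at a change of 5.58, and the day 7 columns are paler for most members.

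Many promoters of mitotic genes carry a cell cycle genes homology region (CHR), to which the MuvB core of the DREAM and B-Myb complexes binds, together with CCAAT boxes, which bind NF-Y. The RefSeq promoter table of GRCm38.p6 held 40 of the 49 genes, in 45 windows of 250 bases before to 50 bases after the start site. Those not in it were Spc24, Zwilch, Aurkb, Incenp, Pbk, Cdc25c, Cdca2, Tpx2 and Smc4. On both strands, a CHR, spelled TTTGAA or else TTCGAA, was present in 30 of the 45 windows, or 66.7%, and in 19.2% of all 32851 windows of this length. A CCAAT box, written as CCAAT, was found in 75.6% of the members' windows and in 37.4% of all windows. The pair stood together in 60.0% of the members' windows and in 7.52% of all. An E2F site, searched as TTTCCCGC, TTTCGCGC, TTTGCCGC or TTTGGCGC, was in 6.67% of the members' windows and 2.26% of all. For the 19 genes higher at day 3 that had a window, 80.0% of 20 windows held a CHR and 75.0% a CCAAT box. Of the 11 members without a tested probe, all 11 had a window and 7 held a CHR. These are matches of letters, given as a description.

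**Figure D2:**
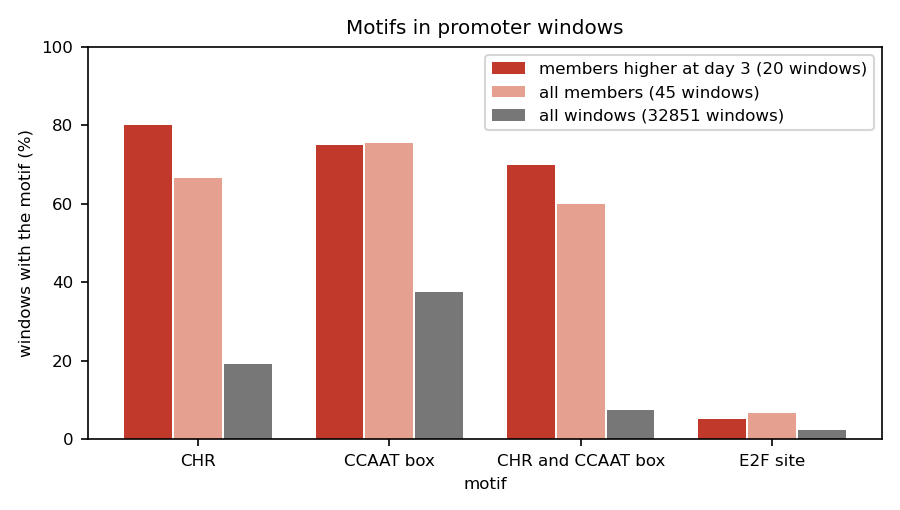
Percentage of RefSeq promoter windows (300 bases each) that hold each motif on either strand (x axis: motif; y axis: percent of windows) for members higher at day 3, all members and all windows. The CHR was in 80.0% of the windows of members higher at day 3, 66.7% of those of all members and 19.2% of all windows.

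The 150 bases before the start site are printed for 7 genes that rose at day 3, to show where these letters lie in genes described below; the capitals mark whole CHR and CCAAT motifs, those on the other strand included, where a CCAAT box reads ATTGG. Each runs 5′ to 3′ on the strand of the gene, in GRCm38.p6.
Cdc20 (chr4:118437344-118437493, - strand): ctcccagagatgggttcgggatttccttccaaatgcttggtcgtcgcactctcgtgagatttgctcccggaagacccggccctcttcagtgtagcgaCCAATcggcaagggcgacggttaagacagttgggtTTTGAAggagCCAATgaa
Kntc1 (chr5:123749576-123749725, + strand): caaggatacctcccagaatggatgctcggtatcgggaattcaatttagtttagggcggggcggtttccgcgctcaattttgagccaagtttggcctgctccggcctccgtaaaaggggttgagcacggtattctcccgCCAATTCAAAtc
Top2a (chr11:99024190-99024339, - strand): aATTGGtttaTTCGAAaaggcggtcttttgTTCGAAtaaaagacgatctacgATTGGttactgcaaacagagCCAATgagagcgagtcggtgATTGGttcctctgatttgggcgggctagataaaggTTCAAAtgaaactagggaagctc
Cenpn (chr8:116921590-116921739, + strand): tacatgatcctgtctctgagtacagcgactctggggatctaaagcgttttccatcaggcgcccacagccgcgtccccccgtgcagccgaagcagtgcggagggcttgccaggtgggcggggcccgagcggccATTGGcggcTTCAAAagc
Cdca5 (chr19:6084947-6085096, + strand): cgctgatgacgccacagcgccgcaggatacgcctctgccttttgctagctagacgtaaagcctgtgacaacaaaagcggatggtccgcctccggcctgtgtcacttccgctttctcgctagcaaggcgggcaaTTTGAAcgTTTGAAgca
Prc1 (chr7:80294326-80294475, + strand): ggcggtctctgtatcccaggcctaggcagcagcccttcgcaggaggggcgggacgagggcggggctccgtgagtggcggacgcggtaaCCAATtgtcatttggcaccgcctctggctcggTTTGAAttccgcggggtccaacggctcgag
Nusap1 (chr2:119618148-119618297, + strand): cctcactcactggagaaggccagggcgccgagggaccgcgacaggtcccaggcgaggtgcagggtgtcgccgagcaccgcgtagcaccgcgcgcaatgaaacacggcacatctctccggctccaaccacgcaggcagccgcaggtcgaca
In Cdc20 a CHR begins 18 bases before the start site, between CCAAT boxes that begin 53 and 8 bases before it. Top2a has 3 CHR and 4 CCAAT matches in the printed stretch, the most of the 7. In Kntc1 a CCAAT box runs into a CHR on the other strand and the 2 motifs share 1 base. Cdca5 has 2 CHR matches in a row, Cenpn has a CHR 9 bases before the start site, and of the windows of Prc1 the one shown has its CHR 30 bases before it. No motif stands in the stretch printed for Nusap1, one of the genes with the largest rise. The stretches were picked to show the motif: of the 19 genes higher at day 3 with a window, 7 have a CHR in the 150 bases before the start site, and 6 of those are printed. In 7 others, among them Cdca8, Cenpa, Cdca3 and Plk1, the CHR lies 14 to 33 bases after the start site, Bub1b has one further upstream and one after it, and 4 have none.

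At the centromere, Cenpa is the histone H3 variant that marks the site, and Cenph, Cenpk, Cenpm, Cenpn, Cenpp, Cenpq and Cenpt belong to the constitutive network bound to it. Of these 8 genes 4 rose at day 3, namely Cenpa, Cenph, Cenpn and Cenpp. Cenpa read 8.77, 9.22 and 9.01 in virgin mice, 12.4, 12.32 and 12.02 at day 3 and 10.37, 11.08 and 10.53 at day 7. The 3 stages did not overlap, and Cenpa was 9.49-fold higher at day 3 than in virgin mice (log2 change 3.25 ± 0.20 SE, limma adjusted p = 4.7e-05), 3.15-fold higher at day 7 than in virgin mice (1.66 ± 0.20, adjusted p = 8.7e-04) and lower at day 7 than at day 3 (-1.59 ± 0.20, adjusted p = 0.0018). Cenpn, which binds the Cenpa nucleosome, read 7.01, 7.43 and 6.67 in virgin mice, 9.42, 9.7 and 9.53 at day 3 and 8.08, 8.26 and 7.3 at day 7. Its rise at day 3 was 2.52 ± 0.26 (adjusted p = 5.3e-04) on this probe and 0.59 on a dimmer probe that was not called, and the day 7 animals overlapped with the virgin ones. Cenpp read 6.37, 6.51 and 6.48 in virgin mice, all under background, against 8.79, 8.78 and 8.46 at day 3, which makes it at least 4.09-fold higher at day 3. At day 7 it read 6.93, 6.93 and 6.84, above every virgin array but short of a 2-fold change. Cenph rose by 1.59 at day 3. Cenpt, which joins the network to the Ndc80 complex, had a log2 change of 0.77 ± 0.18 at day 3 and 0.83 ± 0.18 at day 7, with adjusted p values of 0.023 and 0.015 but folds below 2, and a difference of 0.06 between the days. Cenpk and Cenpm had changes of 0.61 and 0.58 at day 3, and Cenpq was under background on every array.

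The outer kinetochore holds the Ndc80 complex, which grips microtubules through Ndc80, Nuf2, Spc24 and Spc25, and the corona with Kntc1 and Zwilch, which bring dynein and the Mad proteins. Kntc1 rose most of the group. It read 7.48, 6.64 and 6.58 in virgin mice, 10.85, 10.89 and 10.42 at day 3 and 7.69, 8.57 and 6.54 at day 7. The day 3 animals stood 14.1-fold above the virgin ones (3.82 ± 0.46, adjusted p = 0.0011), while those of day 7 spread over the virgin range and beyond (0.70 ± 0.46, adjusted p = 0.35). Without day 7 replicate 3, which had the lowest value at that stage, Kntc1 was called higher at day 7, with a change of 1.23 (adjusted p = 0.048). Its partner Zwilch changed by 0.36 at day 3 and was not called.

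The 4 subunits of the Ndc80 complex had changes of both signs at day 3. Spc25 read 6.51, 6.46 and 6.2 in virgin mice, against 7.82, 7.69 and 7.39 at day 3, and was at least 1.99-fold higher at day 3 by the bound and 2.37-fold by its measured means (adjusted p = 6.8e-04); a dimmer probe changed by 0.36. At day 7 it read 6.68, 6.89 and 6.67, and the change between the days, -0.89, was called under median scaling (-1.14), cyclic loess (-1.08), normexp (-1.08) and without day 3 replicate 3 (-1.01). Spc24 was the single member called lower at day 3. It read 9.82, 9.15 and 9.23 in virgin mice, 8.35, 8.26 and 8.38 at day 3 and 8.32, 8.48 and 8.64 at day 7, with the virgin animals above all others. Its change at day 3 was -1.07 ± 0.17 (adjusted p = 0.0041), and another, dim probe of the gene had 0.30 with an adjusted p of 0.11. The call of Spc24 ended under 2 settings, as the change was -0.41 (adjusted p = 0.14) under median scaling and -0.86 without virgin replicate 1. At day 7 its change against virgin mice was -0.92 ± 0.17 (limma adjusted p = 0.0073), short of 2-fold. Spc24 was called lower at day 7 without virgin replicate 2 (-1.05), virgin replicate 3 (-1.01) or day 7 replicate 3 (-1.0). Ndc80 and Nuf2 had changes of 0.58 and 0.68 at day 3, with adjusted p values of 0.012 and 0.021 and folds of 1.5 and 1.6. Cenpe and Cenpf, a motor and a large coiled protein of the corona, were under background on every array.

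Of the checkpoint genes, Bub1b and Cdc20 rose at day 3. Bub1b encodes BubR1, a part of the complex that inhibits Cdc20. It read 6.78, 6.63 and 6.6 in virgin mice, 10.28, 10.16 and 9.86 at day 3 and 7.39, 8.06 and 7.63 at day 7. Its 3 stages did not overlap, with a 10.8-fold rise at day 3 (3.43 ± 0.18, adjusted p = 1.8e-05) and a 2.03-fold rise at day 7 (1.02 ± 0.18, adjusted p = 0.0049). The day 7 call was lost under cyclic loess (0.72), without day 7 replicate 2 (0.84) and without virgin replicate 3 (0.99), and the other probe of Bub1b had 0.69. Cdc20, the activator of the anaphase-promoting complex that the checkpoint restrains, read 7.89, 7.63 and 8.54 in virgin mice, 11.34, 11.2 and 11.09 at day 3 and 8.36, 9.45 and 8.9 at day 7. All 3 of its tested probes were called at day 3, with the brightest at 3.19 ± 0.29 (adjusted p = 2.8e-04), and at day 7 its animals overlapped with virgin mice. Its change of 0.88 ± 0.29 at day 7 was called without day 7 replicate 1 (1.16), without virgin replicate 3 (1.14) and under median scaling (1.39). Median scaling called 1390 of all named genes higher at day 7, beside 418 in the deposited values.

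Mad2l1, the checkpoint protein that binds Cdc20, took a different course. It read 8.59, 7.89 and 8.33 in virgin mice, 9.1, 9.3 and 8.96 at day 3 and 7.63, 7.91 and 7.34 at day 7. The step at day 3, 0.85 ± 0.20 (adjusted p = 0.023), fell short of 2-fold. Between the days Mad2l1 was lower by a called change of -1.5 ± 0.20 (adjusted p = 0.0023), and 2 of the 3 day 7 values lay under all virgin values. Its day 7 change against virgin, -0.65 ± 0.20, was not called. In the deposited values Mad2l1 was the single gene called lower at day 7 than at day 3 without a called rise at day 3. Under median scaling its rise at day 3 was called too, as were those of Birc5, Cenpt and Espl1. That scaling put the median day 3 change of all tested probes at 0.209. Bub3, which carries Bub1 and BubR1 to the kinetochore, changed by 0.30 at day 3 and was not called, and the kinases Bub1 and Ttk were under background on every array.

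The chromosomal passenger complex joins the kinase Aurkb to Incenp, survivin (Birc5) and borealin (Cdca8), and corrects faulty attachments before it moves to the midzone. Cdca8 had the second largest rise of all members. It read 6.77, 7.71 and 6.62 in virgin mice, 11.77, 11.75 and 11.8 at day 3 and 9.32, 9.99 and 9.01 at day 7. The stages did not overlap, and Cdca8 was 26.8-fold higher at day 3 (4.74 ± 0.31, adjusted p = 5.8e-05) and 5.31-fold higher at day 7 (2.41 ± 0.31, adjusted p = 0.0012) than in virgin mice. Another probe of Cdca8 read between 6.48 and 6.75 on all arrays and had a change of 0.10 at day 3, so the 2 probes disagreed. Aurkb, which showed 6.54, 6.73 and 6.52 in virgin mice, 7.78, 7.76 and 7.73 at day 3 and 6.64, 6.89 and 6.72 at day 7, rose 2.24-fold at day 3 (1.16 ± 0.10, adjusted p = 1.9e-04). Its fall between the days was at the 2-fold limit (-1.0 ± 0.10), and it lay under it without day 3 replicate 1 (-0.99), day 7 replicate 1 (-0.95) or day 7 replicate 3 (-0.99). Incenp and Birc5 both had a change of 0.80 at day 3, with adjusted p values of 0.009 and 0.005, and neither reached a 2-fold change.

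**Figure D3:**
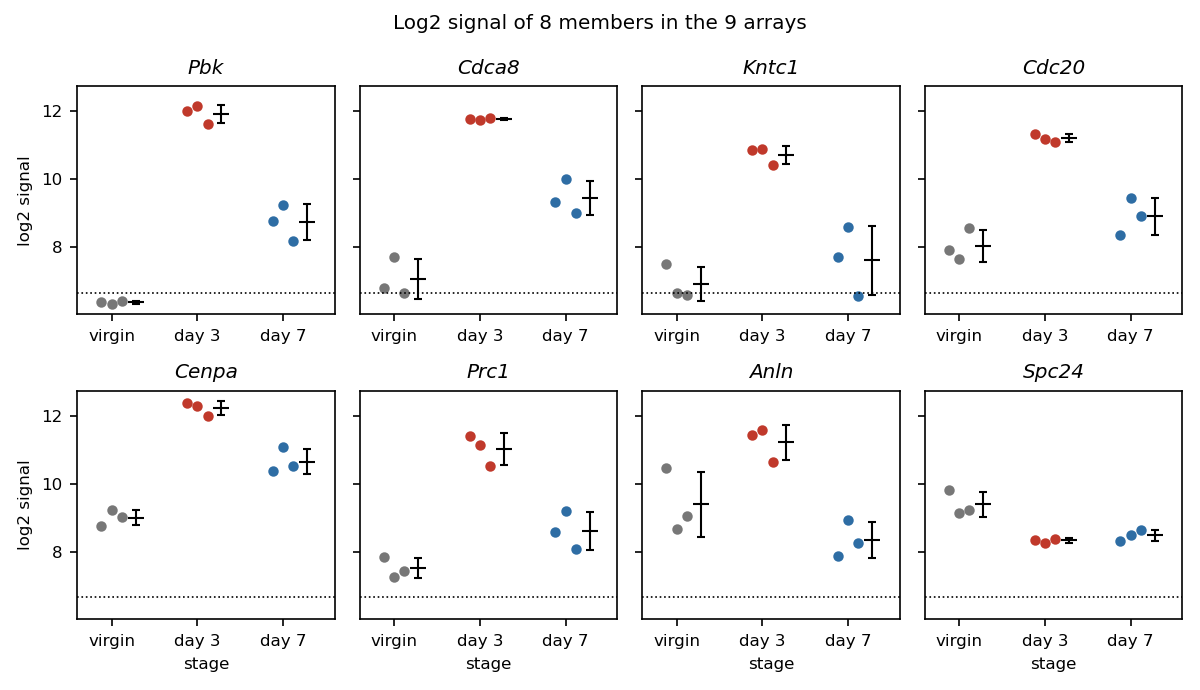
Log2 signal (y axis) of 8 members at the 3 stages (x axis), with a point for each array (replicates 1 to 3 from left to right) and the mean ± SD of 3 animals as a bar beside them; the dotted line is a signal of 100, or 6.64. Pbk and Cdca8 have 3 separate stages, Anln falls below its virgin mean of 9.4 at day 7, and Spc24 is highest in virgin mice.

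The kinases and regulators of mitotic entry moved together. Aurka, Plk1, Pbk, Cdc25c, Cdca2 and Cdca3 all rose at day 3 and all were lower at day 7 than at day 3, which makes 6 of 7, as Nek2 was under background. Pbk, a kinase active in mitosis, read 6.37, 6.31 and 6.4 in virgin mice, 12.01, 12.16 and 11.64 at day 3 and 8.75, 9.24 and 8.18 at day 7. All virgin arrays were below background, and Pbk was at least 39.3-fold higher at day 3 (fitted change 5.58 ± 0.24, adjusted p = 9.5e-06) and at least 4.23-fold higher at day 7 (2.36 ± 0.24, adjusted p = 3.7e-04). It was one of the 4 genes still called at day 7 without day 7 replicate 2. Cdca3, an adaptor that promotes the destruction of the Cdk1 inhibitor Wee1, read 6.25, 6.33 and 7.07 in virgin mice, 10.73, 10.98 and 10.41 at day 3 and 7.47, 8.52 and 7.63 at day 7. Both of its tested probes were called in all 3 comparisons, with changes of 4.15 and 2.71 at day 3 and of 1.32 and 1.10 at day 7. Plk1, a kinase needed from entry to cytokinesis, read 7.43, 6.84 and 7.17 in virgin mice, 9.72, 9.22 and 9.38 at day 3 and 7.25, 8.44 and 7.28 at day 7. At day 3 it was 4.92-fold higher (adjusted p = 0.0019), and at day 7 replicate 2 alone lay above the virgin range. The rises of Aurka (1.68), Cdc25c (1.88), the phosphatase that activates Cdk1, and Cdca2 (1.91), which brings a phosphatase to chromatin, were of similar size.

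Both spindle genes rose at day 3. Nusap1, which bundles microtubules near chromosomes, read 7.33, 6.81 and 6.96 in virgin mice, 10.91, 10.79 and 10.37 at day 3 and 7.77, 8.45 and 6.75 at day 7. The rise at day 3 was 12.6-fold (3.66 ± 0.37, adjusted p = 4.7e-04), and at day 7 it was 0.63 ± 0.37 with overlap of the groups. Without day 7 replicate 3 the day 7 change of Nusap1 was 1.08 and called (adjusted p = 0.025). Tpx2, the activator of Aurora A on the spindle, read 6.5, 6.5 and 6.47 in virgin mice, 8.43, 8.02 and 8.09 at day 3 and 6.69, 6.95 and 6.78 at day 7. It was at least 2.9-fold higher at day 3 (1.69 ± 0.12, adjusted p = 1.1e-04), and its day 7 arrays stood just above background and above all virgin arrays.

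Condensin, built from Smc2 and Smc4 with Ncapd2, Ncapg and Ncaph in its condensin I form, and topoisomerase II alpha (Top2a) shape the mitotic chromosome. Ncaph read 7.98, 7.67 and 8.19 in virgin mice, 10.36, 10.3 and 10.14 at day 3 and 8.98, 9.86 and 8.06 at day 7. It rose 4.99-fold at day 3 (2.32 ± 0.38, adjusted p = 0.0042). At day 7 the brightest probe of Ncaph changed by 1.02 ± 0.38 with an adjusted p of 0.104, and its call as higher rests on the other probe, at 1.10 ± 0.29 (adjusted p = 0.031). Without day 7 replicate 2 and under cyclic loess Ncaph was not called at day 7. Top2a read 6.42, 6.35 and 6.42 in virgin mice, 8.42, 8.43 and 7.99 at day 3 and 6.52, 6.7 and 6.56 at day 7. At least 3.12-fold higher at day 3 (adjusted p = 7.0e-05), it was back at or near background at day 7. Ncapd2 read 6.6, 6.58 and 6.51 in virgin mice, 7.96, 7.93 and 7.83 at day 3 and 6.95, 6.89 and 6.81 at day 7, and was at least 2.4-fold higher at day 3 (adjusted p = 4.7e-05). Smc4, shared by both condensins, had a change of 0.29 at day 3 (adjusted p = 0.12). Smc2 and Ncapg were not tested, and Ncapg reached a signal of 100 on 1 day 3 array only.

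Of the genes of cohesion and anaphase, Cdca5 (sororin, which protects cohesion) rose at day 3. It read 6.47, 6.48 and 6.32 in virgin mice, 7.88, 7.9 and 7.69 at day 3 and 6.74, 7.3 and 6.75 at day 7. The fold at day 3 was at least 2.27 (1.40 ± 0.15, adjusted p = 6.8e-04). Between the days the change of Cdca5 was -0.89, short of 2-fold, and it was called without day 7 replicate 2 (-1.08), under median scaling (-1.13), cyclic loess (-1.07) and normexp (-1.07). Espl1, the separase that cuts cohesin, had 0.84 at day 3 (adjusted p = 0.0014) and -0.02 at day 7, and Ube2c, an enzyme that builds ubiquitin chains with the anaphase-promoting complex, had 0.32 at day 3 (adjusted p = 0.14). Ube2c was the single tested member whose day 3 and virgin values overlapped on the brightest probe; the groups did not overlap in 35.4% of all genes tested, and the filter favours members that were high at a stage. Pttg1, the securin that restrains separase, was under background on every array.

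In cytokinesis, Prc1 bundles the microtubules of the central spindle and Anln (anillin) organises the contractile ring. Prc1 read 7.83, 7.25 and 7.43 in virgin mice, 11.42, 11.16 and 10.52 at day 3 and 8.58, 9.19 and 8.08 at day 7. It was 11.5-fold higher at day 3 (3.53 ± 0.31, adjusted p = 2.4e-04) and 2.16-fold higher at day 7 (1.11 ± 0.31, adjusted p = 0.042) than in virgin mice, without overlap. The day 7 call of Prc1 was lost without day 7 replicate 2 (0.82), virgin replicate 2 (0.99) or virgin replicate 3 (1.07), and under cyclic loess (1.0). Ect2 and Racgap1, which activate the GTPase RhoA at the cell equator, were under background on every array.

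Anln had the widest spread in virgin mice and the lowest day 7 level relative to them. It read 10.48, 8.66 and 9.05 in virgin mice, 11.45, 11.6 and 10.65 at day 3 and 7.88, 8.93 and 8.24 at day 7. Its rise at day 3 was 1.84 ± 0.48 (adjusted p = 0.034), and the call was lost without virgin replicate 3 (1.66), day 3 replicate 1 (1.73) or day 3 replicate 2 (1.65). At day 7 it changed by -1.05 ± 0.48 against virgin mice (adjusted p = 0.18) with overlapping groups, and this was called with Cyber-T (adjusted p = 0.046) and without virgin replicate 2 (-1.41, adjusted p = 0.094). Between the days Anln was 7.36-fold lower at day 7 than at day 3 (-2.88 ± 0.48, adjusted p = 0.0057). A dimmer probe of Anln had changes of -0.15 at day 3 and 0.03 between the days.

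**Figure D4:**
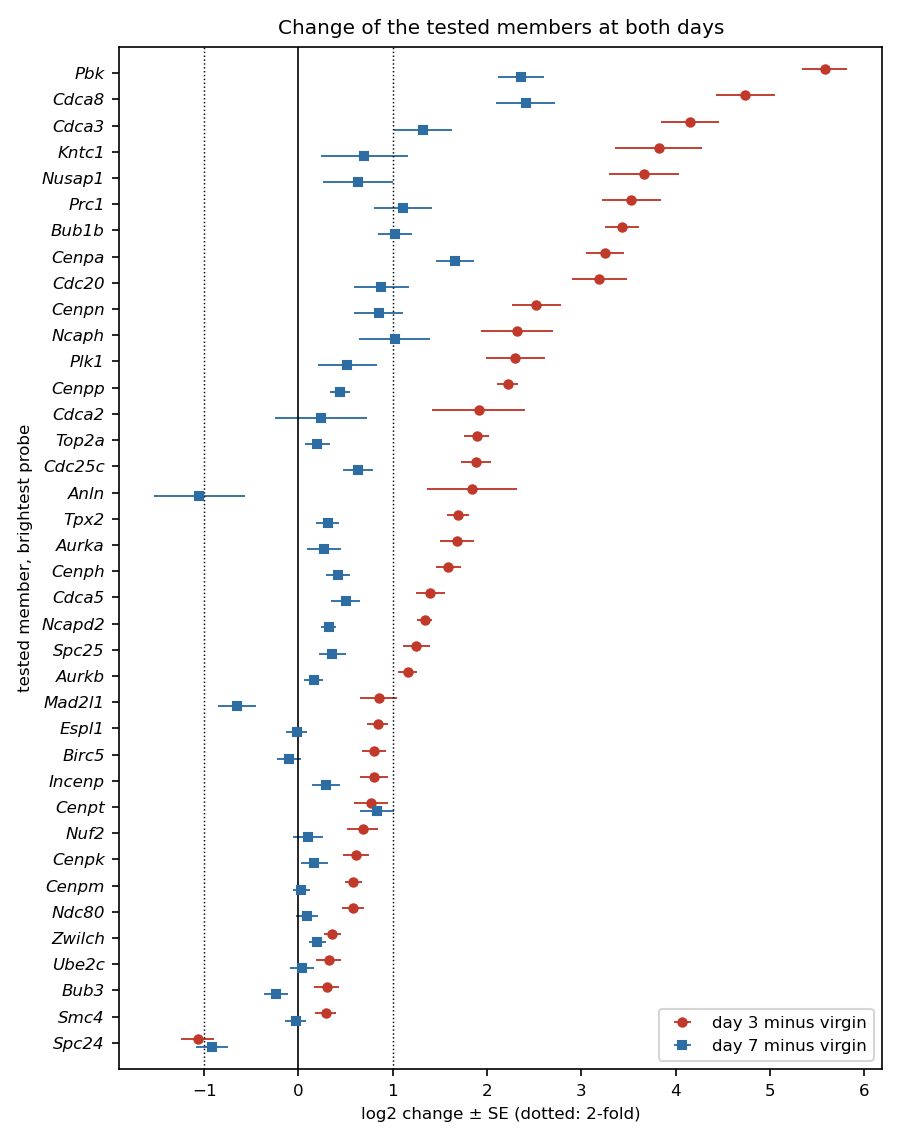
Log2 change ± SE (x axis) of the 38 tested members (rows, brightest probe, ordered by the change at day 3) for day 3 minus virgin (circles) and day 7 minus virgin (squares); dotted lines mark a 2-fold change. All circles but that of Spc24 lie above 0, from 0.29 for Smc4 to 5.58 for Pbk, and Cenpt has its 2 values side by side, at 0.77 and 0.83.

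Altogether 13 tested members were called in neither direction at day 3, with changes of 0.29 to 0.85, and 10 of them had an adjusted p of 0.10 or less. For those 10, the fold of less than 2 was what kept them from being called. The 11 members without a tested probe had 23 probes between 6.16 and 6.69 in all animals. On these probes a change could not be measured, which does not show that the genes were silent. Probes of the same gene also differed. Of 15 members with more than 1 tested probe, 8 had the same call on all of them in the 3 comparisons, and 7 did not, namely Cenpn, Spc24, Spc25, Bub1b, Cdca8, Ncaph and Anln. The 8 include Cenpm, Zwilch, Birc5 and Smc4, which were called on no probe. A further 25 probes of tested members stayed under background in every stage mean and are not in this count. Among them are probes of Cenpa, Nusap1, Prc1 and Top2a, which were called higher at day 3 on another probe.

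The animals of a stage were not equal in these genes. Among the 24 members higher at day 3, day 7 replicate 2 had the highest day 7 value in 22, or 91.7%, and it lay 0.4 above the stage mean in the median. Over all genes tested this animal was highest in 35.5%, and over the other 310 genes higher at day 3 in 44.8%. At day 3, replicate 3 was lowest in 19 of the 24, or 79.2%, against 54.2% of the other genes higher at day 3 and 36.3% of all genes. The SD over the 3 animals had a median of 0.44 for these members at day 7, 0.21 at day 3 and 0.24 in virgin mice, where all genes tested had 0.15, 0.12 and 0.19. Without day 7 replicate 2, 4 members were called higher at day 7 than in virgin mice, Cdca3, Cdca8, Cenpa and Pbk. Without day 7 replicate 3, 10 were called higher.

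**Figure D5:**
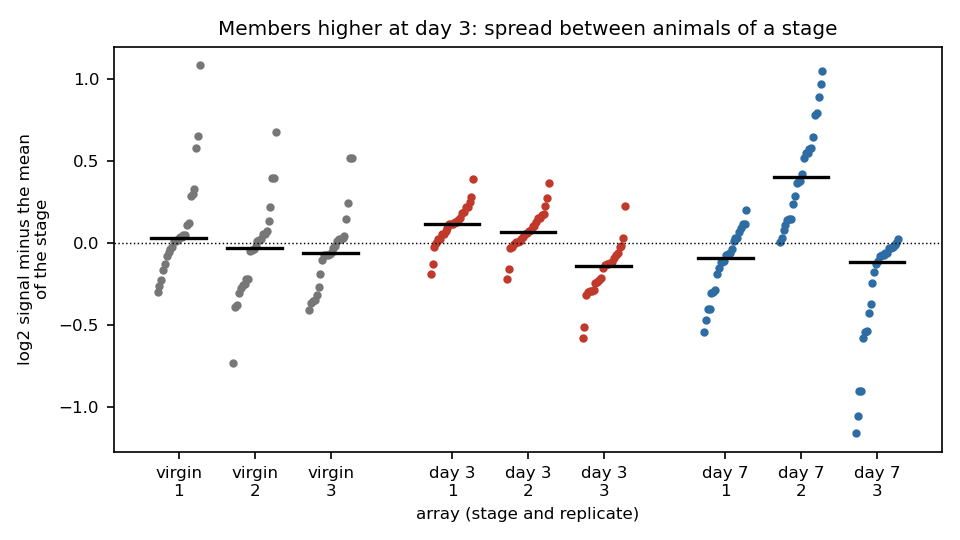
Difference of each array from the mean of its stage (y axis, log2 signal) for the 24 members higher at day 3 (points, brightest probe), by stage and replicate (x axis); black bars are medians. Day 7 replicate 2 has a median of 0.4 and no member below its stage mean, while day 3 replicate 3 has a median of -0.14.

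Markers of other cell types also varied between animals. Of 9 tested markers of HR- luminal cells, 6 were highest in replicate 2 at day 7, and the same number were highest in day 3 replicate 1 and in virgin replicate 2. At day 7 Csn3 had 9.78, 10.86 and 8.2 and Ltf 7.83, 9.96 and 7.63 in replicates 1 to 3, while Wap had 8.51, 7.98 and 6.38 and Elf5 6.61, 6.9 and 6.92. Of the 9, 2 were called higher at day 7 than in virgin mice, Csn2 (2.54) and Wap (1.29), and 1 lower, Csn3 (-2.69). Over all genes tested 3.71% were called higher and 3.86% lower there. At day 3 none of the 9 was called higher and 2 were lower, Csn3 (-2.79) and Mfge8 (-1.01), beside 2.97% and 3.15% of all genes. The HR+ list itself summed to 29820 to 31120 at day 3 and 25210 to 26030 at day 7, against 32330 to 46130 in virgin mice. Over the whole HR- list, the summed signal ran from 10760 to 14990 at day 3, against 21770 to 32820 in virgin mice, and was 18280 to 30450 at day 7. These sums are of linear signals, so the brightest genes weigh most. Krt8 and Krt18, keratins of luminal cells of both kinds, made up most of each HR+ sum, and Mfge8 most of each HR- sum. The HR+ sum therefore does not tell HR+ from HR- cells. The HR- sum mainly follows Mfge8, which read 13.14 to 14.64 over the 9 arrays and had a day 7 change of -0.02. It therefore does not give the share of HR- cells. The basal list summed to 1625 to 4892 at day 3 and 3444 to 13610 at day 7, against 986.1 to 1959 in virgin mice, with Krt17 higher at day 3 by 2.83 (adjusted p = 0.0017) and Trp63 not called there. At day 7 Krt17 was higher than in virgin mice by 3.66 (limma adjusted p = 3.6e-04) and Trp63 by 1.86 (adjusted p = 0.019). These were 2 of 7 tested basal markers, with none lower, where 3.71% of all genes tested were called higher. The leukocyte list summed to 684.5 to 854.9 at day 3 and 1065 to 1168 at day 7, against 1048 to 1534 in virgin mice. Stromal and endothelial markers summed to 3116 to 3690 at day 3 and 1321 to 1475 at day 7, against 2829 to 3677 in virgin mice. Of the 11 HR- markers 3 were under background on every day 3 array, and so were 3 of 10 basal, 3 of 7 leukocyte and 4 of 9 stromal and endothelial ones. What part these cells had in the levels of the mitotic genes was not tested.

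Other genes of mitosis outside the 49 were read the same way. Of 70 such genes, 50 had a tested probe, 5 were higher at day 3 and none was lower by limma or by Cyber-T, with 2 lower at an unadjusted p under 0.05. Over all genes tested 2.97% were called higher at day 3. Spag5, a spindle protein, had the largest change of these, with 7.07, 7.11 and 6.47 in virgin mice, 10.43, 10.49 and 10.22 at day 3 and 8.99, 9.79 and 8.76 at day 7. Spag5 did not overlap between the stages, with changes of 3.49 at day 3 (adjusted p = 1.3e-04) and 2.29 at day 7 (adjusted p = 7.2e-04). Mis18a, which licenses the loading of Cenpa, rose by 2.19 at day 3 (adjusted p = 7.0e-05) and had 0.24 at day 7. Anapc5, a scaffold subunit of the anaphase-promoting complex, rose by 1.57 at day 3 and 1.45 at day 7, with adjusted p values of 3.0e-04 and 3.4e-04. Cenpw and Gtse1 each rose by 1.02 at day 3. Over the 50 genes the median change was 0.39 at day 3, 0.03 at day 7 and -0.44 between the days.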

How the data were processed

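HR+ cells of 9 mice were measured on Illumina MouseWG-6 v2.0 arrays. The deposited intensity table holds raw probe signals on a linear scale, with empty detection columns. The log2 table was made by the authors in Partek Genomics Suite 6.6 by log2 transformation and quantile normalisation, per the series' design text, and it is the table analysed here. Recomputed from the intensities, its values differed by 0.0238 on average. The platform annotation paired 34903 of 45281 probes with genes, and 18 with several, which were left unnamed. All 9 arrays were fitted in limma 3.58.1 (R 4.3.3), which stands in for the Cyber-T test of the methods, and p-values were adjusted by Benjamini-Hochberg. Signal over background and 3 arrays per stage limit the precision, and an exact permutation test of 3 against 3 cannot give a p under 0.1. Which arrays shared a BeadChip of 6 is not given in the sources used here.

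The members and lists were chosen with earlier results of these data known. Values in every array are given for up to 3 called members per role with the largest change at day 3, for each member called at day 7 or lower, and for those whose probes differ in call. Mad2l1 was named after its values were seen. Alternatives covered normalisation, background correction, filter, test, thresholds, probe choice, the replicate block and each array left out. Promoter sequences came from RefSeq, and figures from Python 3.11.15 with matplotlib 3.10.9.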

Additional observations from a re-analysis of the deposited data

Results flagged for a closer look

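The change between virgin mice and day 3 differed from that between virgin mice and day 7 in 23 members, by the test of day 7 against day 3 itself in limma at an adjusted p of 0.10 or less and a 2-fold change. All 23 differences are negative, so the level was lower at day 7 than at day 3. At the centromere they were -1.59 for Cenpa, -1.18 for Cenph, -1.67 for Cenpn and -1.78 for Cenpp on the log2 scale. Kntc1 of the corona had -3.12. The checkpoint genes had -2.41 for Bub1b, -2.31 for Cdc20 and -1.5 for Mad2l1, and the passenger complex -2.34 for Cdca8 and -1.0 for Aurkb. Among the kinases and regulators of entry the values were -3.22 for Pbk, -2.83 for Cdca3, -1.78 for Plk1, -1.67 for Cdca2, -1.41 for Aurka and -1.25 for Cdc25c. The spindle genes had -3.03 for Nusap1 and -1.38 for Tpx2. Of the chromosome structure genes, Top2a had -1.69, Ncaph -1.3 and Ncapd2 -1.02. In cytokinesis Anln had -2.88 and Prc1 -2.42. Spc25 and Cdca5, which also rose at day 3, had -0.89 each and were not called between the days in the deposited values, though each was called under 3 other normalisations or background corrections and with 1 array left out. With 3 animals per stage no search for outlying samples was made.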

How the results depend on the processing

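No called value of a named member changed direction on its brightest probe in the 21 alternatives run for single members. Of 1323 single member values recomputed, 1264 kept their side of the threshold, 24 lost a call and 35 gained one. The count of 24 members higher at day 3 was 22 to 25 with an array left out, and the 7 higher at day 7 were 4 to 10. The 23 lower at day 7 than at day 3 were 20 to 24, the 1 lower at day 3 was 0 to 1, and the 0 lower at day 7 were 0 to 2. Without virgin replicate 1 none was lower at day 3, and under median scaling the count was 0 as well. Members higher at day 7 numbered 4 under cyclic loess, 4 without day 7 replicate 2 and 15 with no minimum fold change. Over all named genes, 397 were called higher under cyclic loess and 405 without day 7 replicate 2, beside 418 with all 9 deposited arrays. Members lower at day 7 numbered 1 with Cyber-T, 2 with no minimum fold change, 2 without virgin replicate 2, 1 without virgin replicate 3 and 1 without day 7 replicate 3. Median scaling gave 28 higher at day 3, 10 higher at day 7 and 27 lower at day 7 than at day 3, normexp gave 26 higher at day 3, and normexp and cyclic loess gave 27 lower at day 7 than at day 3. Median scaling also called 1390 of all named genes higher at day 7, where the deposited values gave 418. With no minimum fold change 35 were lower at day 7 than at day 3, where at 2-fold there were 23. Under median scaling the median of all tested probes was 0.209 at day 3, against -0.007 in the deposited values, and the median change of the 38 tested members at day 3, 1.64, was 1.96 with it and 1.87 with normexp background correction. At day 7 the median of all tested probes was 0.179 with median scaling, against -0.009 in the deposited values. The replicate block gave the same counts, 24 higher and 1 lower at day 3, 7 higher at day 7 and 23 lower at day 7 than at day 3. Arrays with the same number had correlations of -0.05 to 0.07 in their deviations from the stage means, and 5 of 9 arrays were most like one of their own number. These values show no strong pairing by number, but with 3 arrays per stage they cannot exclude one. The BeadChip as a block was not run, as the headers name none. For Ncaph, the fall between the days was lost on the brightest probe in 7 alternatives, among them no filter (adjusted p = 0.11). Dim signal is 1 limit, since for 11 members no probe reached background in a stage mean. Where a call changed, the cause was not tested.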
